A study of Mus musculus with 5 samples.

Results

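The translation initiation factor genes of the mouse were examined for CREB and H3K4 peaks in the fetal testis. They are the protein-coding genes whose RefSeq symbol starts with Eif and a digit from 1 to 6, without Eif2ak3, and number 55 of 21887 protein-coding genes on the assembled chromosomes. The data are peak lists from CUT&RUN, in which an antibody guides a nuclease that releases the DNA around its target. The groups were CREB at E13.5, CREB at E16.5, CREB at E18.5 and H3K4 at E18.5 (days of gestation), with 1 library each and 100000 cells per assay; the labels give the H3K4 antibody without a methylation state and name no genotype, strain or treatment. The cells came from whole dissociated male gonads, so a peak cannot be assigned to a cell type, and with 1 library per group no difference between stages or antibodies has a replicate check. A gene was counted when any base of a peak lay within 1000 bp of one of its annotated ends. Values for the 3 stages are given in the order E13.5, E16.5, E18.5 unless a stage is named.

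Initiation factors bring the initiator tRNA, the small ribosomal subunit and the mRNA together before the large subunit joins. eIF2 carries the initiator tRNA and is recharged by eIF2B, eIF3 is the scaffold on the small subunit, and eIF4F (eIF4E, eIF4G and eIF4A) binds and unwinds the capped 5' end. Phosphorylation of eIF2 by its kinases, and capture of eIF4E by its binding proteins, are the main brakes on this step. CREB is the transcription factor activated by cAMP signalling, which gonadotropins use in the testis. It binds the cAMP response element (CRE), whose palindrome reads TGACGTCA and whose core reads TGACG.

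The sequences below come from the RefSeq promoter table (GRCm38.p6, which shares mm10 coordinates) and are shown because CREB recurred there between stages or was absent at a close relative. They are a selection of stretches directly upstream of the gene. Shown are some genes with CREB at 3 stages (Eif4a1, Eif1, Eif4ebp2, Eif5a) and at 2 stages (Eif3d, Eif2b2, Eif2s3y). For comparison a related gene without CREB is added (Eif2s3x, Eif4a2). Eif4g1 (3 stages) and Eif1a, Eif2ak4, Eif3k and Eif5b (2 stages) are not shown, so the selection does not give the share of genes with a core. Of genes whose CREB peaks reach into a promoter window, 9 of 15 held a core inside a peak. Each stretch runs 5' to 3' on the gene's strand, and capitals mark the CRE core TGACG or its other strand CGTCA. For Eif5a the stretch precedes the inner start that lies nearest to its CREB peaks.
Eif4a1 (chr11:69672424-69672623, minus strand): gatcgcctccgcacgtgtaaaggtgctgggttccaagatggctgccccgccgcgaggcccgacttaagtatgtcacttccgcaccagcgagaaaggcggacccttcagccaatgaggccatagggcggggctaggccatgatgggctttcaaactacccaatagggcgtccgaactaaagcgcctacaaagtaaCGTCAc
Eif1 (chr11:100319749-100319948, plus strand): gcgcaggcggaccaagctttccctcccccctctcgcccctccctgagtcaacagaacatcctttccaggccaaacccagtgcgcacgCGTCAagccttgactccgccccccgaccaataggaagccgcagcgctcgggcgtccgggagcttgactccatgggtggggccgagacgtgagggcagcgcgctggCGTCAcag
Eif4ebp2 (chr10:61452791-61452919, minus strand): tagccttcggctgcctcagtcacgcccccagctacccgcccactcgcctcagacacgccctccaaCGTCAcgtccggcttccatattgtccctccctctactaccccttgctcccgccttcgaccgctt
Eif5a (chr11:69921387-69921506, minus strand): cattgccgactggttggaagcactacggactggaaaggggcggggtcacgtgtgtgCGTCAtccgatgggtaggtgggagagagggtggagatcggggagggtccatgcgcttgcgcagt
Eif3d (chr15:77970825-77971024, minus strand): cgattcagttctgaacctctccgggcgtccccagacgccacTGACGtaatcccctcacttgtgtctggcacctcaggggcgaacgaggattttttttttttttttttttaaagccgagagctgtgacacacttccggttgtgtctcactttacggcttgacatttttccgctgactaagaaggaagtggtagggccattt
Eif2b2 (chr12:85219281-85219480, plus strand): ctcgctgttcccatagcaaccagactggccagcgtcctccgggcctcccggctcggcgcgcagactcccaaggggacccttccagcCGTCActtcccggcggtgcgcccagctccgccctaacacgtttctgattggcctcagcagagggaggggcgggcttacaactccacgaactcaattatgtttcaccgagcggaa
Eif2s3y (chrY:1010362-1010561, plus strand): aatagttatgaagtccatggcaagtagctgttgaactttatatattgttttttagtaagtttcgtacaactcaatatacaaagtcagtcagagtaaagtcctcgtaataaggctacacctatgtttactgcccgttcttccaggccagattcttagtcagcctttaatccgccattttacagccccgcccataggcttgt
Eif2s3x (chrX:94212652-94212851, minus strand): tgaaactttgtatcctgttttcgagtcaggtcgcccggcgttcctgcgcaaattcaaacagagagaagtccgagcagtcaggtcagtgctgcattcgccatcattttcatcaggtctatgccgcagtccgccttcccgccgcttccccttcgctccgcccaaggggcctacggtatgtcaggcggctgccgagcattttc
Eif4a2 (chr16:23107268-23107467, plus strand): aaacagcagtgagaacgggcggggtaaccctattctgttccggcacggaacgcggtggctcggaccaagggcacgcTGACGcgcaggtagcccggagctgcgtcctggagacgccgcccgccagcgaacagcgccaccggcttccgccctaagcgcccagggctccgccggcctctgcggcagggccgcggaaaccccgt

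CREB peaks lay at the ends of 5, 16 and 15 of the 55 genes by stage. These are 9.09% at E13.5 (95% Wilson interval 3.95 to 19.6), against 3.94% of all protein-coding genes. At E16.5 they are 29.1% (18.8 to 42.1) against 14.9%, and at E18.5 27.3% (17.3 to 40.2) against 12.9%. The intervals cover counting error only. An H3K4 peak lay at the ends of 52 genes, or 94.5% (85.1 to 98.1), against 52.7% of all protein-coding genes. When only genes with an H3K4 peak were considered, CREB was at 9.62% of the initiation factor genes against 7.2% of all such genes in the E13.5 list. In the E16.5 list the shares were 30.8% against 27.0%, and in the E18.5 list 28.8% against 23.4%. The shares among H3K4 genes are thus close to their background, and no excess of CREB is read from them.

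**Figure D1:**
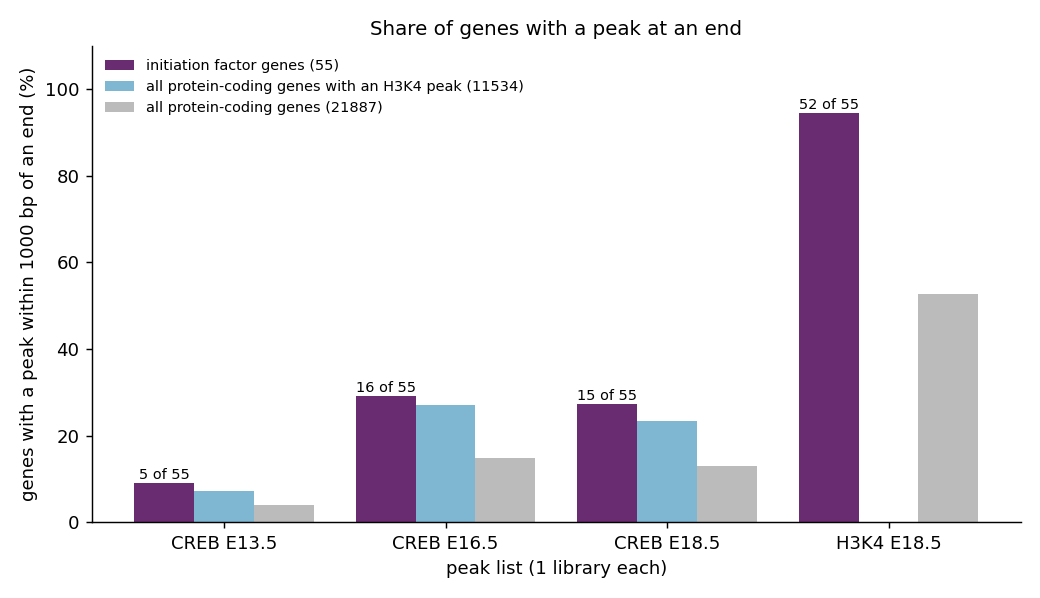
Bars give the percent of genes with a peak within 1000 bp of an end in each peak list, for the 55 initiation factor genes, for all protein-coding genes with an H3K4 peak (CREB lists only) and for all protein-coding genes. The initiation factor bars (5, 16, 15 and 52 of 55) stand above the bars of all genes. In the CREB lists they also stand near those of genes with an H3K4 peak, though the 55 include genes without one.

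Over all stages 19 of the 55 genes (34.5%) had a CREB peak, against 16.7% of all protein-coding genes, and each of the 19 also had an H3K4 peak. So did most protein-coding genes with CREB, 830 of 862, 3109 of 3272 and 2698 of 2817 by stage. The shares below are set beside all protein-coding genes and not beside those with H3K4, so no excess of CREB is read from them. Eif1, Eif4a1, Eif4ebp2, Eif4g1 and Eif5a had a CREB peak at all 3 stages, which is 9.09% against 3.83%. Eif1a, Eif2ak4, Eif2b2, Eif2s3y, Eif3d, Eif3k and Eif5b had one at E16.5 and E18.5 and not at E13.5, which is 12.7% against 7.29% (7.4% for any pair of stages). No initiation factor gene had one at E13.5 alone, as had 1 gene (0.00457%) of all protein-coding genes. Eif2ak1, Eif2b1, Eif3b and Eif3h had one at E16.5 alone (7.27% against 3.79%), and Eif2a, Eif2s2 and Eif6 at E18.5 alone (5.45% against 1.69%). All 5 genes with CREB at E13.5 had it at both later stages, and over all such genes 98.3% had it at E16.5 and 98.8% at E18.5. Of the 16 genes at E16.5, 75% had CREB at E18.5 too, and of the 15 at E18.5, 80% had it at E16.5. Over all genes these shares were 74.4% and 86.4%. No initiation factor gene had a CREB peak wholly inside its body over 1000 bp from both ends, where 0.475%, 2.52% and 1.95% of all genes did. H3K4 peaks of that kind were listed in 6 of the genes, Eif3h, Eif4a1, Eif4e, Eif4e3, Eif4g3 and Eif5a (10.9%, against 17.4% of all genes). Median gene length was 17815 bp for the initiation factor genes and 17169 bp for all genes.

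**Figure D2:**
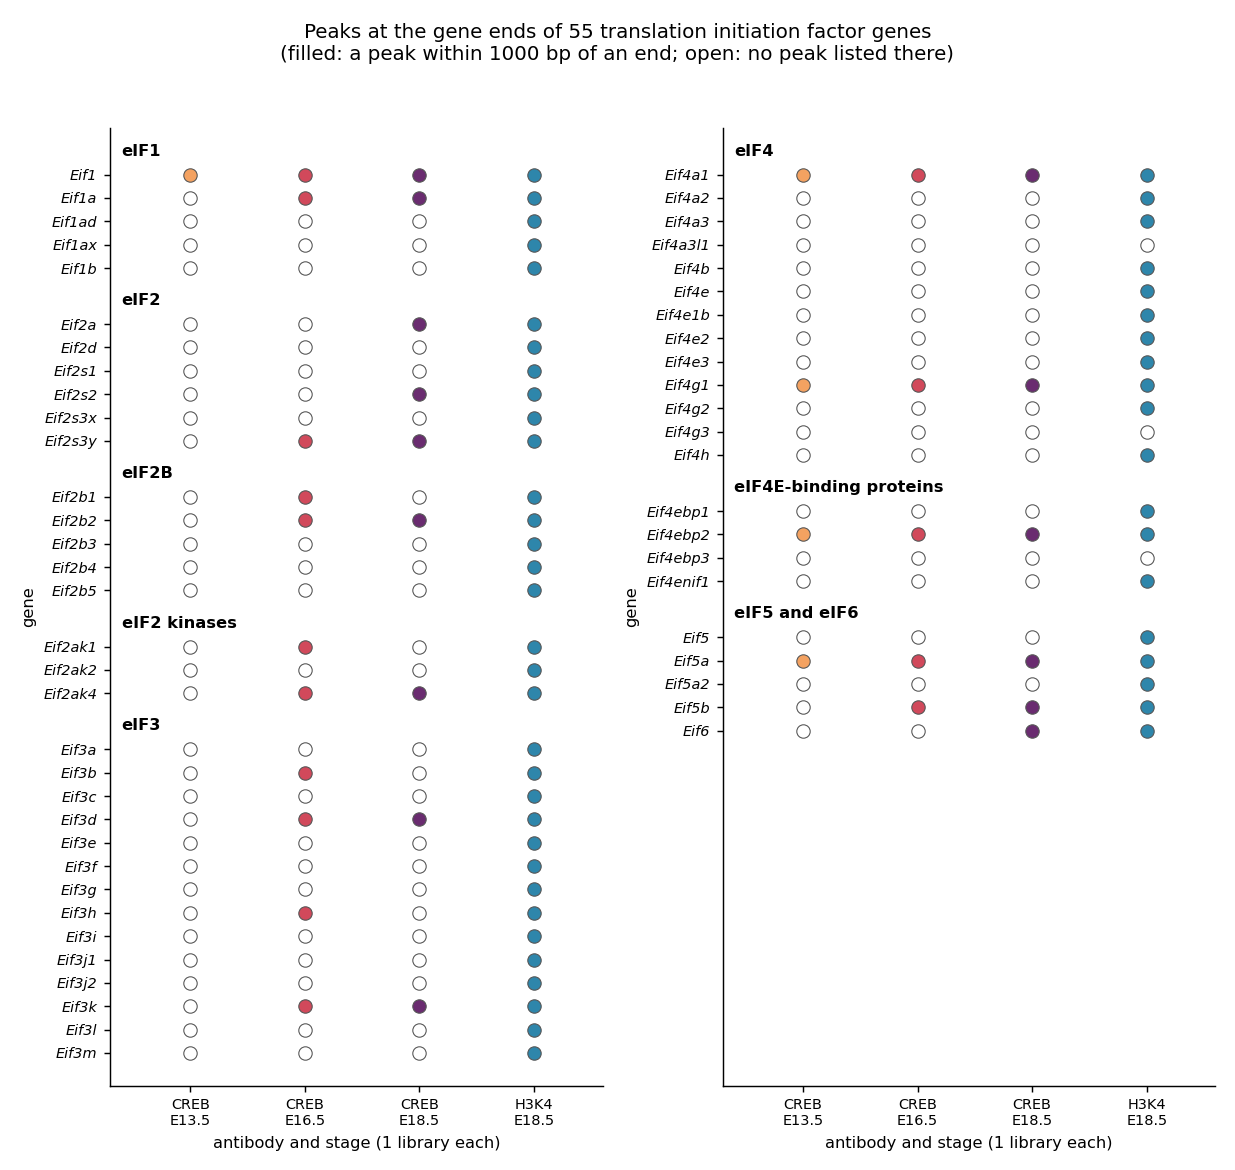
Rows are the 55 genes ordered by complex and columns the 4 peak lists with 1 library each; a filled circle marks a peak within 1000 bp of a gene end. The H3K4 column is filled for 52 genes, and the CREB columns are filled for 5, 16 and 15 genes.

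Among the factors that scan for the start codon, Eif1, which guards the fidelity of start codon choice, carried CREB at every stage, whereas its close relative Eif1b carried none. The Eif1 peaks lay on chromosome 11 at 100319856 to 100320005, 100319570 to 100320199 and 100319793 to 100319952. Their midpoints stood 19, 65 and 77 bp upstream of the gene start. E18.5 added another peak at 100320314 to 100320473, inside the gene, with its midpoint 444 bp from the start. The Eif1 peaks stood between H3K4 midpoints 320 bp upstream and 640 bp downstream of the start. Eif1a, a gene for eIF1A, which works beside eIF1, had CREB 473 bp from its end at E16.5 and 58 bp at E18.5, and the midpoints of these peaks were 531 bp apart, the longest distance between stages in the set. The other end within reach of both peaks belongs to Tmed7, 642 and 111 bp away. The X-linked Eif1ax and the related Eif1ad had H3K4 peaks and no CREB peak.

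Of the eIF2 genes, CREB was found at the genes for the beta subunit (Eif2s2) and for the Y-linked gamma subunit (Eif2s3y), and not at Eif2s1, which encodes the alpha subunit that the kinases phosphorylate. Eif2s3y, a Y gene known in the mouse for its part in spermatogonial proliferation, had peaks at 1010151 to 1010780 at E16.5 and 1010375 to 1010534 at E18.5, with midpoints 97 and 108 bp upstream of the gene. They were 1 of 2 chromosome Y peaks in the E16.5 list and the only one of the E18.5 list, and no chromosome Y peak was listed at E13.5. The X-linked copy Eif2s3x had an H3K4 peak 406 bp inside its start, and the edge of its nearest CREB peak lay 10489 bp away at E16.5. How reads shared by these related genes were placed is not given in the sources used here. The Eif2s2 peak was listed at E18.5 alone, at chromosome 2, 154892778 to 154892937, 49 bp inside the gene, and overlapped an H3K4 peak.

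Eif2a, which encodes an alternative carrier of the initiator tRNA, lies beside Serp1, an endoplasmic reticulum protein gene. Its E18.5 peak at chromosome 3, 58525819 to 58525978, had its midpoint 77 bp inside Eif2a and 14 bp from the Serp1 end. At E16.5 the nearest CREB midpoint was 111403 bp from this peak. Eif2d, a factor for unconventional initiation, had H3K4 and no CREB peak.

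The 5 genes for eIF2B, the exchange factor that recharges eIF2, all had H3K4, and CREB lay at Eif2b2 (beta subunit) and Eif2b1 (alpha subunit). Over all protein-coding genes 52.7% had H3K4 and 16.7% had CREB at any stage, and nothing particular to eIF2B is read from 5 genes. Eif2b2 had peaks at chromosome 12, 85219061 to 85219690 at E16.5 and 85219308 to 85219467 at E18.5, with midpoints 106 and 94 bp upstream and 12 bp apart. The Eif2b1 peak, listed at E16.5 alone at chromosome 5, 124578763 to 124579392, stood 54 bp inside Eif2b1 and 71 bp from the end of Gtf2h3, a gene of the general transcription factor TFIIH. Its nearest E18.5 midpoint was 19589 bp away. Eif2b3, Eif2b4 and Eif2b5 had none in any CREB list.

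Among the eIF2 kinase genes, CREB lay at Eif2ak4 (GCN2, the sensor of amino acid shortage) at E16.5 and E18.5, 38 and 83 bp upstream of the gene. It lay at Eif2ak1 (HRI, the sensor of haem shortage) at E16.5 alone, at chromosome 5, 143817451 to 143818080, 27 bp upstream. Eif2ak2 (PKR, the sensor of double-stranded RNA) had an H3K4 peak and no CREB peak.

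All 14 eIF3 genes had H3K4 and 4 of them had CREB, with none at E13.5. Over all protein-coding genes 52.7% had H3K4, 16.7% had CREB at any stage and 3.94% had it at E13.5. Nothing particular to eIF3 is read from so few genes. Eif3d, a cap-binding subunit, had peaks at chromosome 15, 77970770 to 77971399 at E16.5 and 77970912 to 77971071 at E18.5, 260 and 167 bp upstream of its start. Eif3k, a peripheral subunit, had its E16.5 midpoint 69 bp inside the gene and its E18.5 midpoint 31 bp upstream, beside Map4k1, a kinase gene whose end lay 229 and 129 bp away. Eif3b, a core subunit, and Eif3h, a further subunit, were listed at E16.5 alone, at chromosome 5, 140418537 to 140419166 and chromosome 15, 51865496 to 51866125. Their midpoints stood 454 bp upstream of Eif3b and 349 bp from the Eif3h end, and the closest E18.5 midpoints lay 285952 and 126063 bp off. The genes without CREB were Eif3a, Eif3c, Eif3e, Eif3f, Eif3g, Eif3i, Eif3j1, Eif3j2, Eif3l and Eif3m.

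In the cap-binding machinery CREB lay at Eif4a1, the main eIF4A helicase gene, at every stage, and not at Eif4a2, its close relative, nor at Eif4a3, the helicase of the exon junction complex. The Eif4a1 peaks, at chromosome 11, 69672420 to 69672569, 69672152 to 69672781 and 69672414 to 69672573, had midpoints 71, 43 and 70 bp upstream of the start. They stood in positions 16 of 862, 119 of 3528 and 37 of 2957 of their lists, the earliest of any initiation factor gene at E13.5 and E18.5, and Eif5a was earlier at E16.5, in position 91. What the list order follows is not given in the sources used here. Each overlapped the H3K4 peak there, with midpoints 19, 9 and 18 bp apart. A gene end of Senp3, a SUMO protease gene, lay 616, 644 and 617 bp from the midpoints.

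Eif4g1, which encodes the eIF4G scaffold, was also counted at all 3 stages, but its CREB peaks lay at its 3' end. Their midpoints stood 470, 353 and 393 bp beyond that end and 259, 142 and 182 bp from the end of the next gene, Fam131a, which was the nearer at each stage. At the Eif4g1 start there was H3K4, 1059 bp inside the gene, and no CREB peak. The cap-binding protein genes Eif4e, Eif4e2, Eif4e3 and Eif4e1b, the helicase stimulators Eif4b and Eif4h, and Eif4g2 and Eif4g3, which encode further eIF4G proteins, had no CREB peak, nor did Eif4a3l1, a relative of Eif4a3. Among the genes whose proteins hold eIF4E, Eif4ebp2, a translational repressor, had CREB at every stage. The peaks, on chromosome 10 at 61452800 to 61452949, 61452538 to 61453167 and 61452818 to 61452977, had midpoints 84, 62 and 107 bp upstream of the gene. The nearest H3K4 midpoints were 969, 947 and 992 bp away, the farthest of any CREB peak in the set. Eif4ebp1, Eif4ebp3 and Eif4enif1, the eIF4E transporter gene, had none.

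Of the late-acting factors, Eif5a, whose product carries the hypusine modification and also acts in elongation, had CREB at all 3 stages away from its outermost start. The peaks at chromosome 11, 69921380 to 69921529, 69921107 to 69921736 and 69921342 to 69921501, had midpoints 504, 537 and 537 bp inside the gene. The promoter table lists 6 starts for Eif5a, and the midpoints stood at -68, -35 and -35 bp of an inner start at 69921386. The H3K4 midpoint stood 29 bp upstream of the outermost start, and 533, 566 and 566 bp from the CREB midpoints. The relative Eif5a2 had H3K4 and no CREB peak. Eif5b, the subunit-joining GTPase gene, had midpoints 470 and 639 bp upstream at E16.5 and E18.5, nearer to the end of Txndc9, a thioredoxin domain gene, at 246 and 77 bp. The Eif6 peak, listed at E18.5 alone at chromosome 2, 155819156 to 155819315, stood 602 bp outside one end of this ribosome anti-association factor gene and 3 bp from the end of BC029722. Eif5, the gene of the factor that triggers GTP hydrolysis on eIF2, had H3K4 and no CREB peak.

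**Figure D3:**
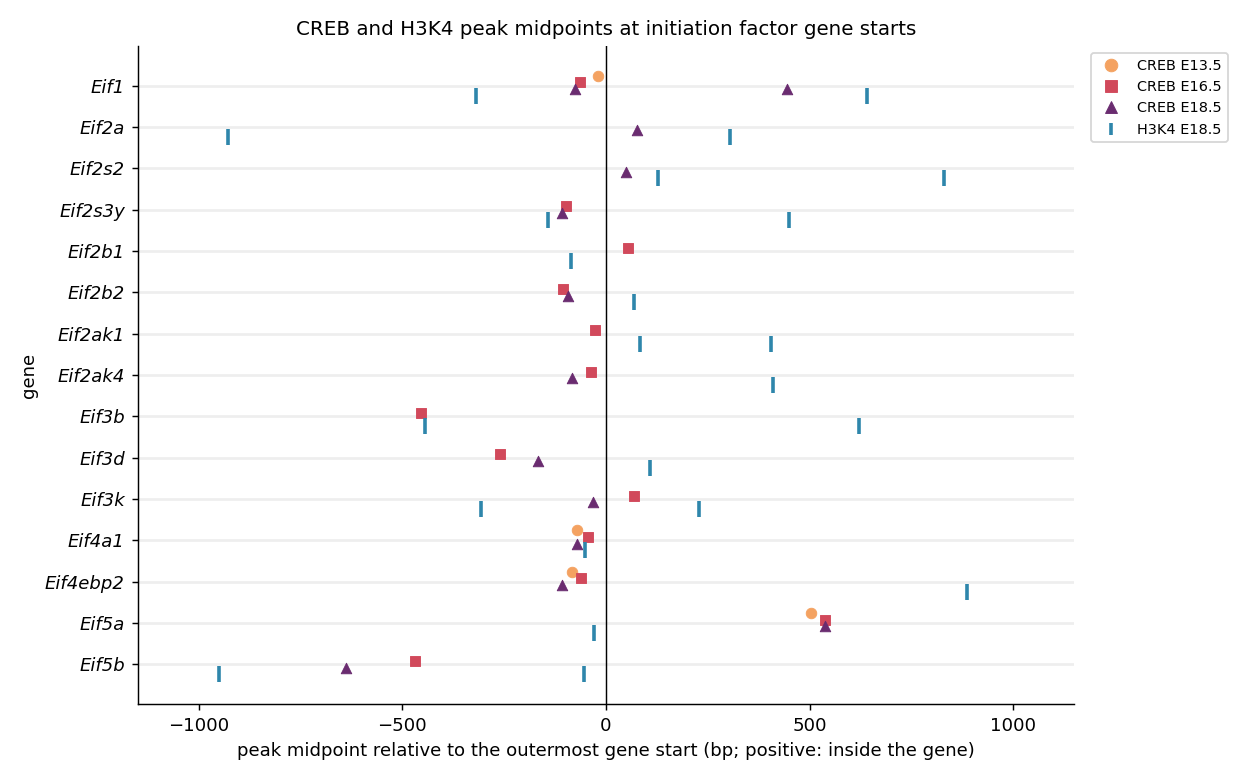
Each row is an initiation factor gene with a CREB peak at its start and a known strand; symbols give peak midpoints in bp from the outermost gene start, with positive values inside the gene, for the 3 CREB lists and the H3K4 list. Most CREB symbols stand just left of the start, while those of Eif5a stand 504 to 537 bp inside the gene, and those of Eif5b 470 and 639 bp upstream.

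Where CREB was listed at several stages, the midpoints lay close together in every gene but Eif1a. The midpoints of E13.5 and E18.5 peaks were 1 to 77 bp apart in 5 genes, with a median of 33 bp. Those of E16.5 and E18.5 were 0 to 169 bp apart in 11 genes and 531 bp apart in Eif1a, with a median of 42.5 bp over the 12 genes. Each distance runs from the earlier stage to the nearest peak of the later one, so the further E18.5 peak of Eif1 does not enter. Both peaks had to lie near a gene end, which favours short distances. These distances were not computed over all genes, so nothing particular to the initiation factor genes is read from them. For genes with a strand in the promoter table, midpoints of CREB peaks at the start were measured from the gene's own nearest start in that table. Their medians were -69.5 bp (4 peaks), -72 bp (13) and -77 bp (13). For all CREB peaks within 1000 bp of a protein-coding start, distances ran from the nearest start of any such gene. Medians there were -96.5, -71 and -91 bp. Upstream of the start were 4 of 4, 11 of 13 and 10 of 13 of the initiation factor peaks, and 79%, 72.2% and 79.5% of all. The H3K4 midpoints stood at a median of 86 bp in the genes described here (59 peaks) and 193 bp over all genes. Of the 59, 22 stood upstream of the start and 37 downstream, against 28.6% upstream over all genes. For CREB and H3K4 alike, starts of neighbouring genes enter only the values over all genes, so no difference is read from these unlike measures. By place in the E16.5 list, the 5 genes with CREB at 3 stages stood at 2.58% to 17% of the way down (median 7.88%, against 12.4% for all genes with CREB at 3 stages). The 7 genes with CREB at 2 stages stood at 23.7% to 83.1% (46.1% against 48%), and the 4 with CREB at E16.5 alone at 57.4% to 68% (65.5% against 71.4%). In the E18.5 list the medians were 10.4% against 15.3% for 3 stages, 53.5% against 53.9% for 2 stages and 69.6% against 77.1% for 1 stage. Genes with CREB at 2 stages ran there from 14.8% (Eif2ak4) to 94.8% (Eif2s3y). All genes showed the same order by number of stages, and nothing particular to the initiation factor genes is read from it.

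At E18.5, where CREB and H3K4 have the same stage, 5 of 16 CREB peaks overlapped an H3K4 peak, those of Eif2b2, Eif2s2, Eif2s3y, Eif4a1 and Eif6. This is 31.2%, against 35.3% of CREB peaks at the ends of all protein-coding genes. All 16 had an H3K4 midpoint within 1000 bp (94.2% over all genes), at a median of 251.5 bp (260 bp), and 6 had H3K4 midpoints on both sides (37.5% against 29%). Overlap with the E18.5 H3K4 list was found for 1 of 5 peaks at E13.5 and 11 of 16 at E16.5, whose peaks are 630 bp wide against 150, 160 and 210 bp in the E13.5, E18.5 and H3K4 lists. Over all genes the shares were 33.2% at E13.5 and 73.2% at E16.5. No difference from all genes is read from so few peaks. The 3 genes without H3K4 at an end were Eif4a3l1, Eif4ebp3 and Eif4g3. At Eif4g3 the nearest H3K4 peak edge lay 2507 bp from an end, and at Eif4e1b, the last gene counted, it lay 992 bp away, nearer to the end of Tspan17. For CREB the genes just outside the window were far off. Eif3g lay 6247 bp from a peak edge at E13.5, and Eif4ebp3 3686 and 4003 bp at the later stages. Just inside it, the edges lay 429 bp (Eif5a), 222 bp (Eif5a) and 559 bp (Eif5b) from the end.

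The CRE palindrome was in none of the promoter windows of the 43 genes found in the promoter table. Of 17492 protein-coding genes 2.54% had it, and of 3062 genes with CREB 9.9%. At such low shares no difference is read from 43 genes. Windows run from 250 bases before to 50 after each start, both strands were searched, and a gene counts if any of its windows holds the letters. The CRE core TGACG, which is also part of the palindrome, was in 11 of 16 initiation factor genes with CREB (68.8%) and in 11 of 27 without (40.7%). The shares over all genes were 56.9% with CREB and 26.2% in all. The core followed by T (TGACGT), a motif chosen after the values were seen, was in 7 of 16 with CREB (43.8%) and 2 of 27 without (7.41%), against 27.9% of all genes with CREB and 9.6% of all genes. Inside a CREB peak it lay in 4 genes, Eif4a1, Eif4ebp2, Eif3d and Eif2s3y. In Eif2s3y this motif was inside the E16.5 peak only, 117 bp from its midpoint, and lies outside the stretch printed above. With the letters that follow, it reads TGACGTTA in Eif4a1 and TGACGTTG in Eif4ebp2, both on the strand opposite to the gene, and TGACGTAA in Eif3d on the gene's strand. In Eif5a the core by the inner start reads TGACGCAC, and in Eif1 the cores read TGACGCGT and TGACGCCA, all on the opposite strand.

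Of the genes whose CREB peaks reach into a promoter window, 9 of 15 held a core inside a peak of any stage, or 60%, against 57.7% of 2687 such genes in all. By list the counts were 4 of 4, 9 of 13 and 6 of 11. The E16.5 peaks are wider, at 630 bp, and the cores of Eif3k and Eif2s3y lay inside the E16.5 peak and not the E18.5 peak. In the 19 peaks with a core inside, the core stood 0 to 267 bp from the midpoint, with a median of 27 bp against 36 bp in all such peaks. Of the 19, 14 were within 50 bp (73.7% against 62.3%). The 19 peaks belong to 9 genes, and a gene enters for each stage with such a peak. In peaks of 150 or 160 bp a core must lie near the midpoint, so no difference is read from these distances. At Eif4ebp2 the E16.5 midpoint fell on the core, and at Eif5a the E13.5 midpoint stood 6 bp from it. Eif4a2 carries a core in the stretch printed above and has no CREB peak, as do Eif4a3, Eif5a2 and Eif4e2. Eif2a, Eif2ak1, Eif2ak4, Eif2s2, Eif3b and Eif5b have CREB peaks without a core in the bases the windows cover. A match describes letters and not a bound site, and windows covered only parts of many peaks. Other motifs were the E-box CACGTG, in 23.3% of the initiation factor genes against 8.91% of all, and the GC box GGGCGG (76.7% against 49.2%). CCAAT stood at 34.9% against 42.3%, and the ETS core CCGGAAG at 37.2% against 12.9%. Over all genes with CREB the shares were 11.6%, 73.0%, 52.3% and 22.4% in the same order. In initiation factor genes with and without CREB they were 25.0% and 22.2%, 81.2% and 74.1%, 37.5% and 33.3%, and 31.2% and 40.7%. Motif shares among all genes with H3K4 were not computed.

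**Figure D4:**
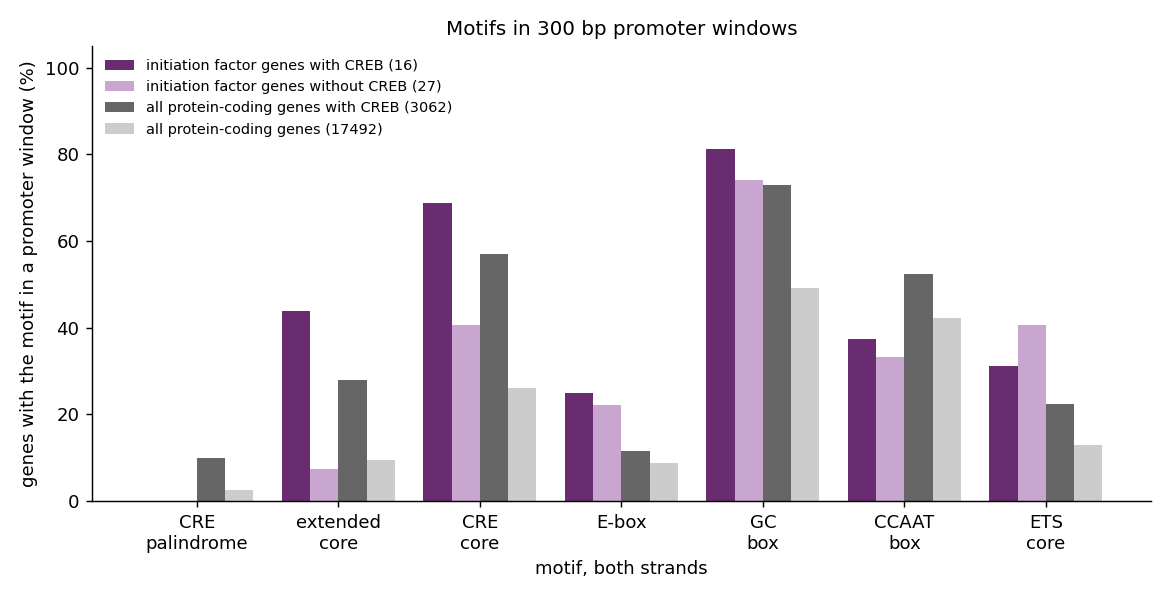
Bars give the percent of genes with each motif in a 300 bp promoter window, on either strand, for initiation factor genes with CREB (16) and without (27), for all protein-coding genes with CREB (3062) and for all protein-coding genes (17492). The CRE palindrome bar is at 0 in the initiation factor genes, and the CRE core bars are 68.8%, 40.7%, 56.9% and 26.2%.

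Other translation genes had CREB as well. Of 20 genes that work with the initiation factors, such as poly(A)-binding proteins and eIF2 phosphatase subunits, 3, 10 and 9 had a CREB peak and 15 had H3K4. The shares of all protein-coding genes to set beside these and the next lists are 3.94%, 14.9% and 12.9% for CREB and 52.7% for H3K4. Among all genes with an H3K4 peak the CREB shares are 7.2%, 27.0% and 23.4%. The lists are short and were chosen with earlier results of these data known, so no excess of CREB is read from them. Pabpc1, a poly(A)-binding protein gene, Abcf1, an ABC protein gene that acts with eIF2, and Ppp1r15a, an eIF2 phosphatase subunit gene, had CREB at every stage, and Pabpc1 had no H3K4 peak at an end. Of 15 elongation and termination genes, 2, 5 and 6 had CREB and 11 had H3K4, with Etf1, the release factor gene, and Abce1, the ribosome recycling gene, at every stage. Of 9 mitochondrial translation factor genes, 1, 3 and 2 had CREB and 8 had H3K4. H3K4 lay at the ends of 8 of 15 Sertoli, Leydig and germ cell marker genes, among them Sox9, Amh, Star, Cyp11a1, Nr5a1 and Dazl, and of 3 of 9 endothelial, blood and nerve marker genes. The share at gonadal markers is near the 52.7% of all genes, so it does not identify the tissue. It was not listed at the ends of Wt1, Gata4, Cyp17a1, Hsd3b1, Insl3, Ddx4 and Pou5f1, and no marker gene had a CREB peak.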

How the data were processed

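Per the labels, CUT&RUN used dissociated fetal gonads, filtered at 70 µm. Of 5 libraries, 4 have a peak list here, 1 per antibody and stage; the IgG library, whose labels give conflicting stages, was not analysed here. The deposited files hold chromosome, start and end of each peak and no score or read count, so depth is unknown and an unlisted peak may still exist. The lists hold 862, 3528, 2957 and 21211 peaks (CREB E13.5, E16.5, E18.5, H3K4). Per the submitters' processing notes, the tools included Bowtie2 2.5.2, Trim Galore 0.6.10 and MACS2, on mm10, with settings and any control not given in the sources used here. Nearly all peaks of a list have 1 width, so width says nothing on a single peak.

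Gene ends came from a RefSeq table (GRCm38.p6), without strand; strand, starts and sequence came from a promoter table that holds 43 of the 55 genes. Overlap needed 1 bp. Shares of genes with a peak are set beside those of all 21887 protein-coding genes, or of the 11534 with H3K4, and motif shares beside those of 17492 genes in the promoter table. No test was run, since each group has 1 library. The genes and lists were chosen with earlier results of these data known. All genes may be named; the fullest values go to genes with CREB at 3 stages or at 1 stage, and of the other lists genes with CREB at 3 stages are named. Code was tested on simulated data and used Python 3.11.15, numpy 2.4.6, pandas 2.3.3, scipy 1.17.1 and matplotlib 3.10.9.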

Additional observations from a re-analysis of the deposited data

How the results depend on the processing

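The counts of initiation factor genes with a peak were recomputed under 8 alternatives: gene ends of 500 and 2500 bp, peaks of 150 bp, gene starts alone, peak midpoints, the nearest gene alone, the first 862 peaks of each list, and inner starts added, the last chosen after seeing the data. Of 40 values 37 stayed within 1.5 times the reported count, but some of them could hardly move. The E13.5 list holds 862 peaks, so the cut to the first 862 returns the same list. Its median peak width is already 150 bp, so peaks of 150 bp change little there. Gene starts alone could be counted only for the 43 genes in the promoter table, whereas the reported counts cover all initiation factor genes. The tally is therefore not read as a measure of robustness. With the first 862 peaks in file order 6 genes had CREB at E16.5 (4.36% of all genes) and 6 at E18.5 (4.29%), and 3 had H3K4 (4.17%); the cut keeps fewer peaks by construction. When a peak counted only for the nearest gene, 4, 14 and 11 genes had CREB by stage, low to high, and 4 at all 3 stages, against 3.09%, 12.2%, 10.6% and 2.82% of all genes. Eif4g1 was lost at every stage, Eif5b at both of its stages, and Eif2a and Eif6 at E18.5. Counting inner starts added H3K4 at Eif4g3 (53 genes, 57.3% of all genes). Within 500 bp, 45 genes had H3K4 (43.5% of all genes). No paired analysis was possible because each group has 1 library.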
